A study of Xenopus tropicalis with 17 samples.

Results

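Wild type embryos of the frog Xenopus tropicalis were compared between stage 25, when the embryo is a tailbud, and stage 35, when it is a tadpole. The comparison used 4 of the 17 RNA-seq libraries of a series on sf3b4, a gene for a subunit of the SF3b complex of the spliceosome. The libraries were taken by the stage and genotype in their labels. Each stage had 2 pools of 5 whole embryos, called pool 1 and pool 2 here by the number in the label. Embryos heterozygous (het) or null for sf3b4, with 2 pools at each of the same stages, were used as further groups, and 2 wild type pools of stage 15 are given as reference levels. All embryos were grown in NAM, and the labels list no treatment. The labels give no age in hours, strain, clutch or collection day, and nothing states whether the pools of a stage came from separate matings, so the p-values measure the spread between pools, which may be partly technical. In whole embryos, fewer cells of a type and less RNA per cell cannot be told apart.

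Between these stages the embryo hatches, its heart starts to beat, blood begins to circulate, and the eye, kidney, liver, gut and pigment cells differentiate. Neurons form synapses, and the tail grows as the presomitic mesoderm is used up into somites. The embryo still lives on yolk, and the ciliated skin of the tailbud is later replaced by the skin of the tadpole.

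Library totals were 17278965 and 15956152 counts at stage 25 and 13467906 and 12076367 at stage 35, within the range of 11714437 to 21639041 over the series. Levels are given as raw counts or as CPM, the counts scaled to an equal library size, which carry no correction for gene length, so levels are compared between pools and not between genes. Log2 CPM values of the pools of a stage correlated across genes with r of 0.978 at stage 25 and 0.974 at stage 35. The chi-square of their counts, for each degree of freedom, was 16.3 and 20.2, so neither pair was 1 library deposited again; this says nothing on whether the embryos were independent. Principal component 1 held 68.7% of the variance and placed the libraries by stage. The 2 wild type pools of stage 35 stood apart in several tissues. All 19 lens genes tested, and 27 of 31 secreted plasma protein genes, were higher in pool 1, whereas 23 of 24 synaptic genes and 23 of 25 phototransduction genes were higher in pool 2. At stage 25, pool 2 was higher for 8 of 9 globin genes and 16 of 19 melanophore genes, and pool 1 for 73 of 78 cytoplasmic ribosomal protein genes. The part of this spread in the results was not tested.

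Of 18290 genes tested, 8370 were called at a Benjamini-Hochberg adjusted p under 0.05 by the quasi-likelihood test of edgeR, which is 45.8% of the genes. Of these, 4427 (24.2%) were higher and 3943 (21.6%) were lower at stage 35. The median log2 fold change was 1.84 among genes called higher and -1.09 among genes called lower. A change of at least 4-fold was found in 2056 called genes (11.2%) that were higher and 835 (4.57%) that were lower. Both stage 25 pools held 3 or fewer counts of 640 of the called genes, here termed the floor, and 42 of these reached 10 CPM at stage 35. Of the 640 genes, 512 were also at the floor in both stage 15 pools. In the other direction, 257 called genes were at the floor at stage 35, and 9 of them had at least 10 CPM at stage 25. Where a gene was at the floor, its fold change is given as a bound computed at 3 counts per library. Limits of this kind cover counting error only. The bound uses the mean of both pools of the higher stage, so the lower of these pools alone gives a smaller bound.

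The 32 gene lists for organs and cell functions differed in how many members were called. They were chosen with earlier results of these data known, so rankings among them are descriptive only. Among the lists with the largest shares called higher were cytoplasmic ribosomal proteins, photoreceptors and the respiratory chain. The largest shares called lower were those of ribosome assembly, spliceosome and multiciliated cell genes. Lists for muscle, heart, pronephros and plasma proteins held members that rose and members that fell.

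**Figure D1:**
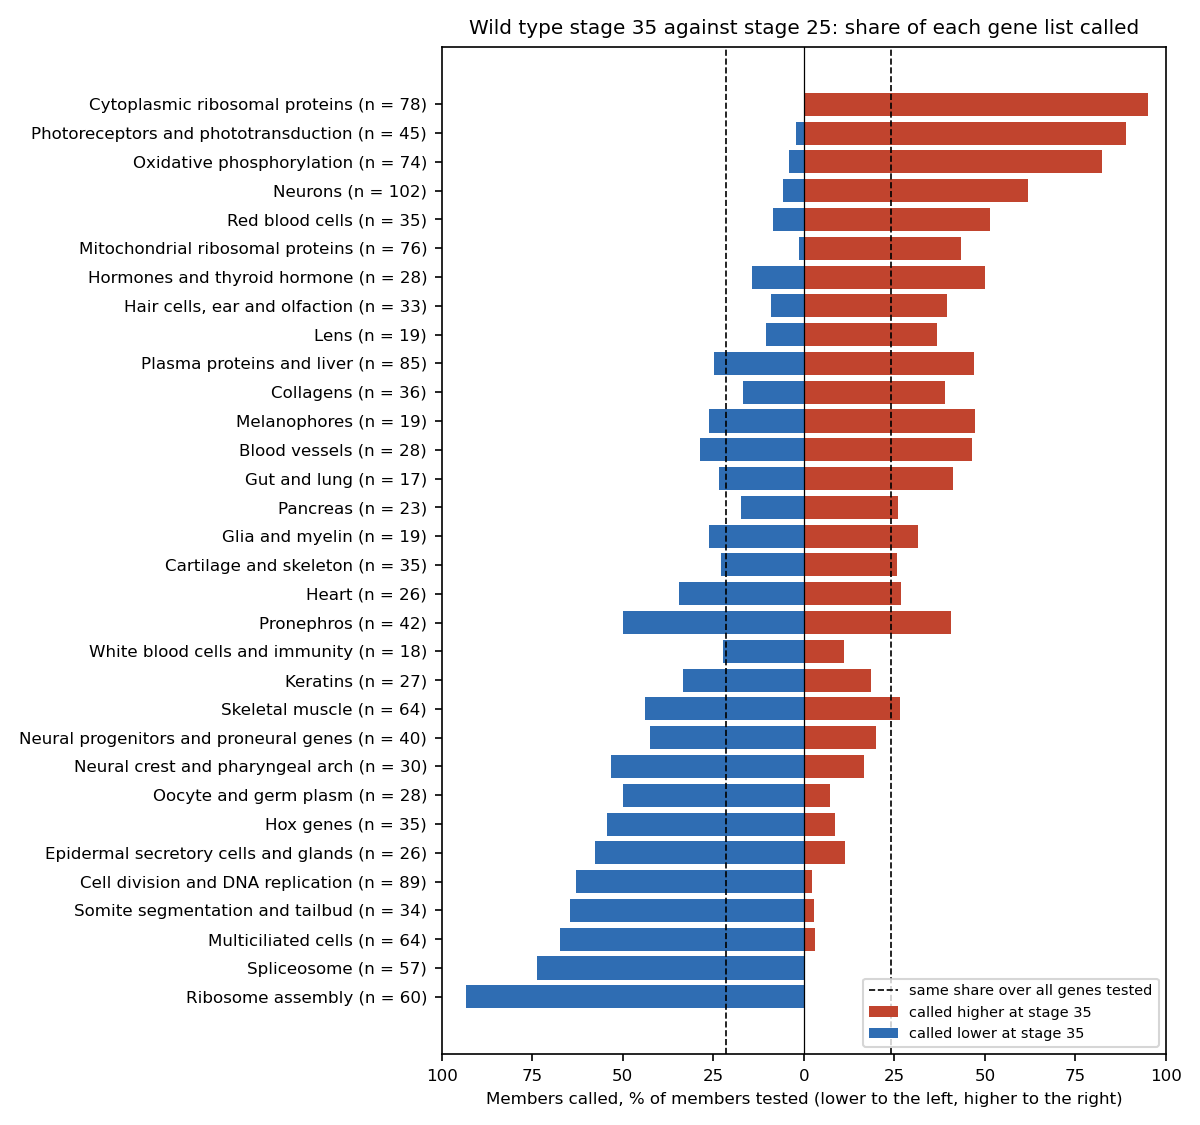
Share of the tested members of each gene list that were called higher (red, to the right) or lower (blue, to the left) at stage 35 in wild type pools, in % of the members tested, with the number tested in brackets. Dashed lines mark the shares over all genes tested, 24.2% higher and 21.6% lower; cytoplasmic ribosomal proteins reach far beyond the line on the right with 74 of 78 members, and ribosome assembly beyond the line on the left with 56 of 60.

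Genes of rods and cones had the largest median change of the 32 lists. In photoreceptors, light isomerises a retinal bound to an opsin, the opsin activates the G protein transducin, and a phosphodiesterase then lowers cyclic GMP so that cation channels close. Of 45 such genes tested, 40 rose and 1 fell, and 38 of the 40 rose by at least 4-fold. The median log2 fold change of the list was 5.32, or 4.30 with genes at the floor taken at their bound, beside 0.01 over all genes tested. Leaving out any 1 pool left 39 or 40 members called higher. The summed level of the list was 181 and 167 CPM at stage 25 and 2290 and 3120 CPM at stage 35.

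The rod opsin gene rho had 3 and 15 counts at stage 25 and 4912 and 6883 counts at stage 35. Both tadpole pools were far above both tailbud pools, and the log2 fold change of rho was 9.61 ± 0.74 (SE, edgeR adjusted p = 1.57e-07). For the long-wavelength cone opsin opn1lw, counts were 0 and 9 at stage 25 and 3519 and 4345 at stage 35 (edgeR adjusted p = 2.72e-08). Short-wavelength opsin opn1sw went from 1.17 and 0.428 CPM to 71.9 and 77.4 CPM, and its log2 change was 6.52 ± 0.43 (edgeR adjusted p = 4.25e-08). Rod and cone opsins rose in the same interval.

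Downstream of the opsins, the cone transducin gamma gene gngt2 rose from 0 and 5 counts to 2686 and 2804 counts, with a log2 fold change of 10.29 ± 0.46 (edgeR adjusted p = 1.81e-09). The rod transducin alpha gene gnat1 rose from 5 and 4 counts to 343 and 413. No read of pde6c, the catalytic subunit of the cone phosphodiesterase, was counted in either tailbud pool, and 369 and 435 counts were found in the tadpoles. Tadpole levels of pde6c were at least 162-fold higher (edgeR adjusted p = 9.91e-07), or 138-fold without pool 2 of stage 35. An inhibitory subunit gene pde6h rose from 3 and 7 counts to 670 and 766 counts, a log2 change of 7.40 ± 0.56. Recoverin, a calcium sensor of photoreceptors, is represented by rcvrn.1, with 568 and 727 counts after 0 and 1. Its level was at least 262-fold higher, or 212-fold without pool 2 of stage 35. The outer segment disc gene rom1 rose from 4 and 3 counts to 77 and 92, and the photoreceptor regulator nr2e3 from 0 and 5 to 207 and 198. Among the genes that fell, lrat, which esterifies retinol in the visual cycle, went from 22.4 and 21.6 CPM to 13.1 and 7.05 CPM (log2 change -1.13 ± 0.28, edgeR adjusted p = 0.0045). The call of lrat was lost without pool 2 of stage 35.

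**Figure D2:**
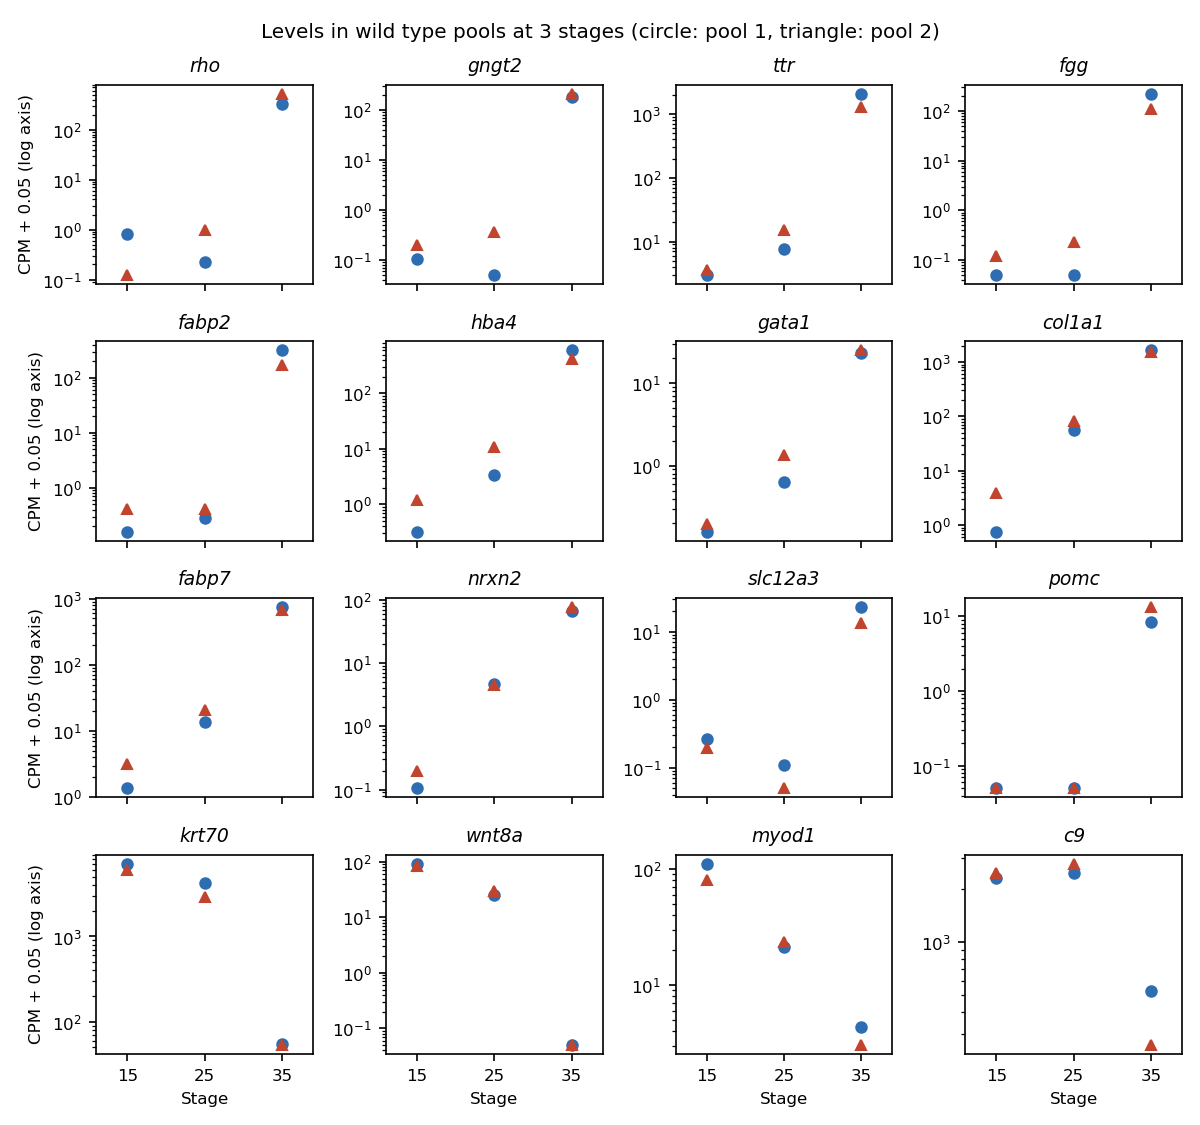
Levels of 16 genes in the wild type pools of stages 15, 25 and 35, in CPM plus 0.05 on a log axis; each point is 1 pool, with circles for pool 1 and triangles for pool 2. rho, gngt2, fgg, fabp2, slc12a3 and pomc lay under 1 CPM at stages 15 and 25, col1a1, hba4, fabp7 and nrxn2 lay higher at each later stage, and krt70, wnt8a and myod1 lower at each; c9 was lowest at stage 35.

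For the crystallins and fibre cell genes of the lens, the 2 tadpole pools differed by more than the stages did in several cases. The lens list had 19 genes tested, of which 7 were called higher, all by at least 4-fold, and 2 lower. Summed over the list, the level was 185 and 213 CPM at stage 25, and 417 CPM in pool 1 but 89.1 CPM in pool 2 of stage 35. Without pool 1 of stage 35, 1 lens gene was called higher, and without pool 2 there were 12; without pool 2 of stage 25 there were 4. The beta crystallin gene crybb1 had 98 and 250 counts at stage 25 and 1009 and 42 at stage 35, so the stages overlapped (log2 change 1.76 ± 1.0, edgeR adjusted p = 0.165). Another beta crystallin, cryba1, was at 9.81 and 20.8 CPM and then at 77.9 and 6.52 CPM, with a log2 change of 1.47 ± 0.90 (edgeR adjusted p = 0.194). Without pool 1 of stage 35, the log2 changes of crybb1 and cryba1 were -1.70 and -1.23.

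The lens genes mip and crygdl.48 had no count in the tailbud and were counted in both tadpole pools, though unequally. For crygdl.43, also at the floor in the tailbud, the bound was 7.69-fold, or 0.428-fold without pool 1 of stage 35. Such a low bound does not settle the direction of crygdl.43 in pool 2. No count of mip, the water channel of lens fibres, was found at stage 25, against 263 and 10 counts at stage 35, which is at least 51.3-fold higher (edgeR adjusted p = 0.00259), or 4.28-fold without pool 1. Likewise, the gamma crystallin gene crygdl.48 had 0 and 0 counts, then 223 and 8, at least 43.4-fold higher (edgeR adjusted p = 0.00364), or 3.42-fold without pool 1. For crygn, levels were 0.759 and 0.367 CPM and then 27.9 and 3.37 CPM. The calls of mip, crygdl.48 and crygn were lost without pool 1 of stage 35. The lens regulator hsf4 went from 4 and 9 counts to 69 and 26 and kept its call in every alternative run. At 1 and 0 counts and then 12 and 2, cryaa, the alpha crystallin marker, was not called (edgeR adjusted p = 0.11). The het pools of stage 35 were split in the same way, with 3.86 and 49.6 CPM of crybb1, while the null pools had 26.7 and 43.9 CPM.

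**Figure D3:**
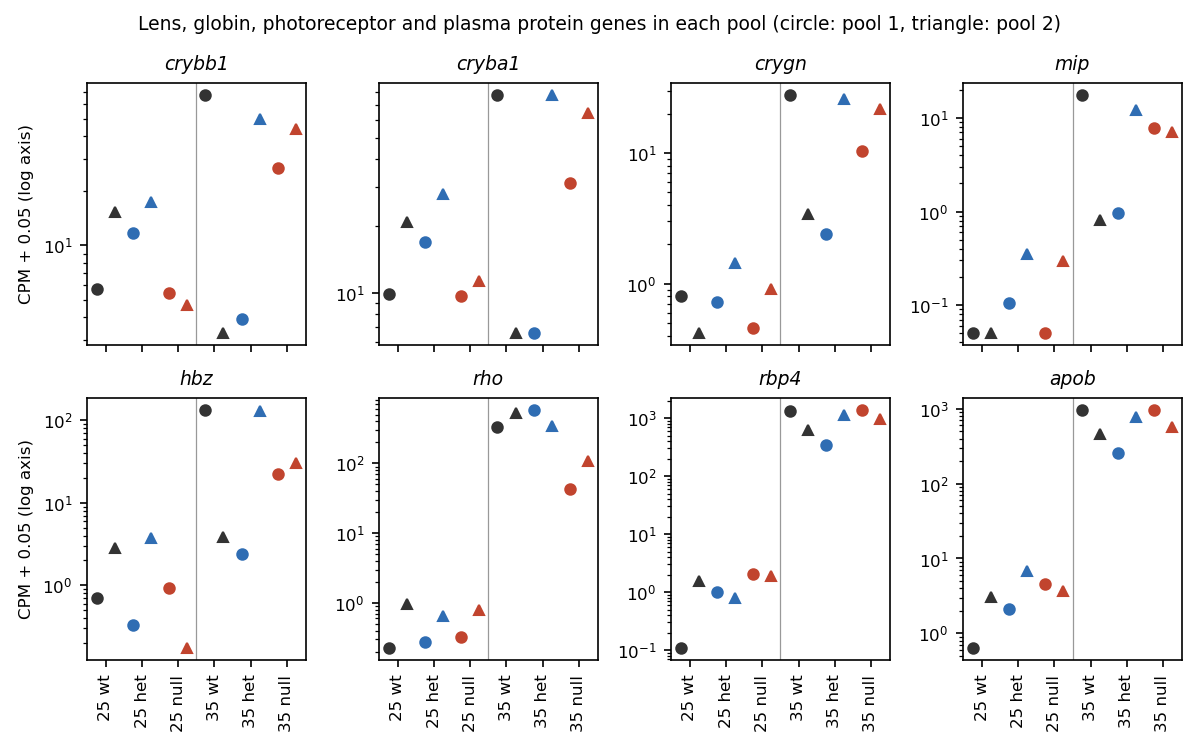
Levels of 4 lens genes (crybb1, cryba1, crygn, mip), a globin (hbz), the rod opsin rho and 2 plasma protein genes (rbp4, apob) in every stage 25 and stage 35 pool, in CPM plus 0.05 on a log axis. Black marks wild type, blue het and red null, circles are pool 1 and triangles pool 2; at stage 35, lens genes and hbz were high in wild type pool 1 and het pool 2 and low in the other pool of each pair, while rho, rbp4 and apob were far above stage 25 in all 6 pools.

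Genes for proteins that the liver secretes into the blood rose with some of the largest changes of the whole comparison. Of 31 secreted plasma protein genes tested, 23 rose and 1 fell, with 19 of the 23 by at least 4-fold and a median log2 change of 3.57, or 3.37 with bounds. The range over the alternatives was 19 to 26 members called higher. Summed over these genes, the level was 2080 and 2200 CPM at stage 25 and 12600 and 6870 CPM at stage 35. Pool 1 of stage 35 was the higher of the pair, and both were above both tailbud pools.

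Transthyretin, a carrier of thyroid hormone, is encoded by ttr, which had 132 and 245 counts at stage 25 and 31279 and 17088 at stage 35 (log2 change 7.23 ± 0.49, edgeR adjusted p = 4.98e-08). The retinol carrier gene rbp4 rose from 1 and 25 counts to 19984 and 8068 counts, a log2 change of 10.28 ± 0.79. Fibrinogen, the clotting protein, has a gamma chain encoded by fgg, with 0 and 3 counts at stage 25 and 3382 and 1438 at stage 35, which is at least 940-fold higher (edgeR adjusted p = 7.96e-08), or 615-fold without pool 1 of stage 35. Its alpha chain gene fga rose from 1 and 9 counts to 3461 and 1526. Of the lipoprotein genes, apoc2 was at least 880-fold higher (513-fold without pool 1 of stage 35) and apob, the scaffold of lipoprotein particles, rose by 8.65 ± 0.81 on the log2 scale. The member that fell was cp, for the copper protein ceruloplasmin, from 48 and 61 counts to 4 and 5 (log2 change -3.30 ± 0.83, edgeR adjusted p = 0.00498). Albumin was not tested: the gene named alb had 0 and 0 counts at stage 25 and 2 and 0 at stage 35.

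Complement genes, whose products also circulate in plasma, moved mostly the other way. Of 17 tested, 10 fell and 2 rose (4 without pool 1 of stage 25), with a median log2 change of -1.28. The terminal component c9 had 2290 and 2450 CPM at stage 15 and 2470 and 2780 CPM at stage 25, then 525 and 259 CPM at stage 35 (log2 change -2.74 ± 0.32, edgeR adjusted p = 6.94e-06). Genes for chains of C8, which joins C9 in the membrane attack complex, fell as well, with log2 changes of -2.56 for c8g and -2.25 for c8b. The members that rose were c4a, from 13 and 17 counts to 444 and 361, and the lectin pathway protease masp2, from 3 and 7 counts to 292 and 141. In each of c9, c8g, c8b, c4a and masp2, the pools of the 2 stages did not overlap. These genes were named as called members with the largest changes, so the lack of overlap is descriptive only. Over the 17 complement genes, 58.8% fell and 11.8% rose, beside 21.6% and 24.2% over all genes tested.

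Among 24 hepatic enzyme genes, 14 rose (58.3%) and 3 fell (12.5%), beside 24.2% and 21.6% over all genes tested. Their summed level was 1250 and 1750 CPM at stage 25 and 2950 and 1320 CPM at stage 35, so the stages overlapped. Of the 24 genes, 20 were higher in pool 1 than in pool 2 of stage 35. The lipid carrier fabp1 went from 10 and 59 counts to 2615 and 1716 (log2 change 6.20 ± 0.65). Tyrosine breakdown is served by hpd, which rose from 0 and 5 counts to 139 and 137, and tryptophan breakdown by tdo2, which was at least 26.5-fold higher (66 and 66 counts after 0 and 0). Enzyme genes that fell were hao1, a peroxisomal oxidase gene, with a log2 change of -2.80 ± 0.30, and the urea cycle gene arg1, with -1.87 ± 0.39. Of 13 endoderm and liver regulators, 7 fell (4 without pool 2 of stage 25) and 1 rose. With all pools, the shares of these regulators were 53.8% lower and 7.69% higher, beside 21.6% and 24.2% over all genes tested. The nuclear receptor gene nr5a2 went from 596 and 440 counts to 51 and 33 and foxa1 from 924 and 1322 to 289 and 161. The regulator that rose was prox1, from 6.01 and 7.09 CPM to 26.9 and 23.2 CPM (log2 change 1.94 ± 0.28, edgeR adjusted p = 5.72e-05), a gene used in liver, lens and lymphatic vessels.

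In the gut, the fatty acid carrier gene fabp2 of the absorptive epithelium had 4 and 6 counts at stage 25 and 4750 and 2210 counts at stage 35, a log2 change of 9.63 ± 0.66 (edgeR adjusted p = 5.12e-08). The brush border gene vil1 rose from 21 and 29 counts to 599 and 493, and the galectin gene lgals4.1 from 3 and 6 to 724 and 441. The retinol carrier rbp2 and the acyl-CoA ligase acsl5, both genes of absorptive cells, were among the 15 largest rises, with 1997 and 663 counts of rbp2 after 2 and 6. The intestinal regulators cdx1 and cdx2, which also act in the tailbud, had log2 changes of -2.48 and -2.40. In all, 7 of 17 gut and lung genes rose (41.2%) and 4 fell (23.5%), beside 24.2% and 21.6% over all genes tested. For the lung, the surfactant gene sftpc rose from 3 and 0 counts to 50 and 46, whereas sftpb fell from 195 and 132 to 41 and 44.

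Of 23 pancreatic genes tested, 6 rose (26.1%) and 4 fell (17.4%), shares near those over all genes, and 3 rose without pool 1 of stage 25. The exocrine enzyme cpa1 was level at 1.93 and 2.38 CPM and then 1.81 and 1.92 CPM (edgeR adjusted p = 0.826). Insulin, encoded by ins, rose from 11 and 18 counts to 72 and 46 (log2 change 2.26 ± 0.55, edgeR adjusted p = 0.00393). The regulator ptf1a, which acts in the pancreas and in inhibitory neurons, rose from 41 and 29 counts to 328 and 301. Endocrine regulators rfx6 and mnx1 fell, rfx6 from 213 and 167 counts to 8 and 15 and mnx1 from 544 and 444 to 38 and 54. The trypsinogen marker prss1 had 3 and 3 counts and then 0 and 0 and was not tested.

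Globin genes rose strongly. Of 8 blood regulators, 3 fell (37.5%) and 1 rose (12.5%), beside 21.6% and 24.2% over all genes tested, with a median log2 change of -0.23. Haemoglobin carries oxygen in erythrocytes, and larval frogs use their own set of globins. Of 9 globin genes tested, 8 rose, all by at least 4-fold, with summed levels of 153 and 340 CPM at stage 25 and 3710 and 2170 CPM at stage 35. The globin hba4 went from 57 and 175 counts to 8979 and 5417 (log2 change 6.18 ± 0.61, edgeR adjusted p = 1.47e-06). Globin copies are similar in sequence, and counts may be split between them. Tailbud pools held 0.642 and 2.75 CPM of the globin hbz, and tadpole pools 134 and 3.83 CPM, so that its call (edgeR adjusted p = 0.014) was lost when any of 3 pools was left out.

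Of 18 genes of haem synthesis and the red cell membrane, 9 rose and none fell. The membrane skeleton gene epb42 was not detected at stage 25 and had 169 and 159 counts at stage 35, at least 65.6-fold higher. The haem synthesis gene alas2 rose from 194 and 241 counts to 1132 and 937, and the anion exchanger slc4a1 from 160 and 193 to 970 and 523. The erythroid regulator gata1 rose from 10 and 21 counts to 343 and 325 (log2 change 4.68 ± 0.43, edgeR adjusted p = 1.35e-06). Regulators of the earlier blood and endothelial lineage fell, with log2 changes of -1.58 ± 0.24 for gata2 and -1.32 ± 0.30 for lmo2. Of 18 leukocyte genes, 2 were called higher (11.1%) and 4 lower (22.2%), shares no larger than about those over all genes. None was called higher by edgeR without pool 1 or pool 2 of stage 25 or pool 1 of stage 35, and 1 was without pool 2 of stage 35. Lower calls numbered 1 without pool 2 of stage 25 and 2 without either pool of stage 35. The phagocyte oxidase gene cybb fell from 32.0 and 42.6 CPM to 9.44 and 6.98 CPM (edgeR adjusted p = 0.000238).

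Among blood vessel genes, 13 of 28 were higher (46.4%) and 8 lower (28.6%), beside 24.2% and 21.6% over all genes tested. The endothelial regulator etv2 fell from 1363 and 1376 counts to 220 and 235 (log2 change -2.32 ± 0.20, edgeR adjusted p = 4.07e-07), and the receptor kdr fell by 1.1 ± 0.29. Among the members that rose, the junction cadherin cdh5 went from 25 and 38 counts to 213 and 103, the clotting factor gene vwf from 38 and 23 to 185 and 158, and the lymphatic and scavenger receptor gene lyve1 from 0 and 0 to 34 and 23, at least 11.3-fold higher.

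In the heart list, 7 of 26 genes rose (26.9%) and 9 fell (34.6%), beside 24.2% and 21.6% over all genes tested. The atrial light chain myl7 rose from 27 and 42 counts to 648 and 617 (log2 change 4.45 ± 0.39, edgeR adjusted p = 5.46e-07). The natriuretic peptide genes were at or near 0 in the tailbud: nppb was at least 32.2-fold higher, with 91 and 71 counts after 0 and 1, and nppa at least 5.29-fold higher, with 18 and 9 after 0 and 0. The cardiac regulators nkx2-5, gata4 and gata5 fell. Counts of nkx2-5 were 685 and 628 and then 128 and 80, a log2 change of -2.41 ± 0.23. The calcium buffer gene casq2 and the troponin gene tnnc1, which are also used in skeletal muscle, had log2 changes of -1.36 and -1.21.

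Skeletal muscle genes took a smaller share of the tadpole counts. Their summed level was 28400 and 26600 CPM at stage 25 and 15700 and 15000 CPM at stage 35. The shares called were 26.6% higher and 43.8% lower, beside 24.2% and 21.6% over all genes tested. Of 64 tested, 28 fell and 17 rose, and the count of higher calls fell to 8 without pool 1 of stage 25 and to 10 without pool 2 of stage 35. The myosin heavy chain gene myh2 went from 28434 and 22620 counts to 2072 and 2371 (log2 change -3.25 ± 0.40, edgeR adjusted p = 1.26e-05). The gene klhl40, which stabilises thin filaments, had a log2 change of -3.64 ± 0.18, xirp1 of the developing myofibril of -3.37 ± 0.41 and the glycolytic enzyme pgam2 of -3.10 ± 0.47. Among the myogenic factors, myod1 was at 111 and 80.0 CPM at stage 15, 21.0 and 23.4 CPM at stage 25, then 4.29 and 2.99 CPM at stage 35. The related factor myf6 fell from 657 and 1019 counts to 65 and 48. The satellite cell regulator pax7 rose from 76 and 95 counts to 167 and 139 (log2 change 1.09 ± 0.27, edgeR adjusted p = 0.00428). Other muscle genes rose, with myh6 going from 340 and 310 counts to 1998 and 1938. In whole embryos, heart and skeletal muscle sources of myh6 cannot be told apart. The calcium release channel ryr3 rose from 207 and 317 counts to 1089 and 980. Counts of the calcium-binding ocm3 went from 13 and 28 to 279 and 173. The creatine kinase ckm was at 200 and 264 CPM and then 497 and 300 CPM and was not called (edgeR adjusted p = 0.104).

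**Figure D4:**
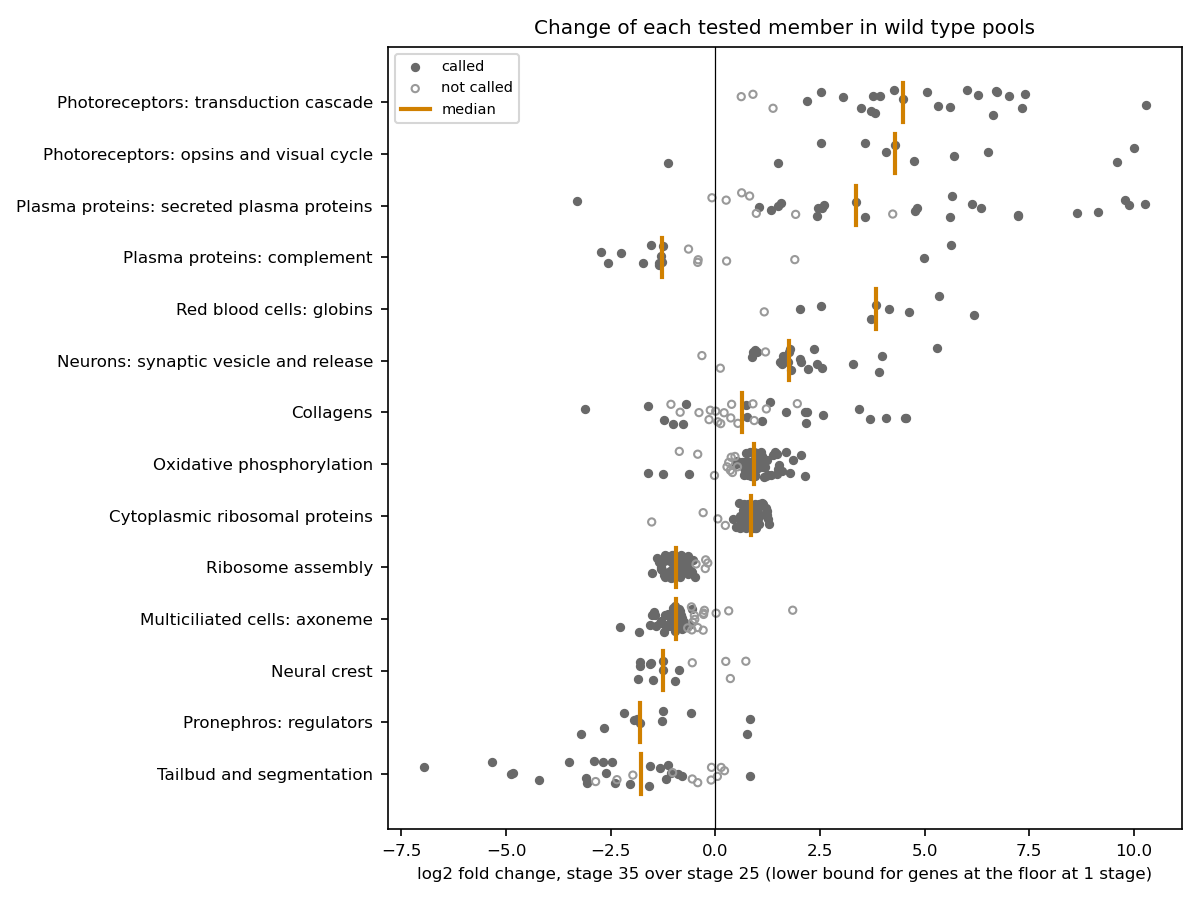
Log2 fold change of each tested member of 14 gene groups, stage 35 over stage 25 in wild type pools, with a lower bound in place of the fitted value for genes at the floor at 1 stage. Filled points were called, open points were not, and the orange bar is the median; photoreceptor, plasma protein and globin genes spread far to the right, ribosomal protein and ribosome assembly genes form narrow groups on opposite sides of 0, and tailbud genes spread to the left.

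In the pronephros, the larval kidney, most regulators fell. Of 11 regulators, 9 fell and 2 were called higher, with a median log2 change of -1.80. The higher calls numbered 1 without pool 1 of stage 35 and 0 without any other single pool. The paired box gene pax8, needed to form the pronephros, went from 911 and 650 counts to 114 and 92 (log2 change -2.66 ± 0.26, edgeR adjusted p = 1.52e-06), and osr2 fell by 2.18 ± 0.22. Tubule transport genes were split, with 12 of 25 higher and 10 lower, and their summed level was 3090 and 3880 CPM at stage 25 against 1610 and 1510 CPM in the tadpoles. The thiazide-sensitive cotransporter slc12a3 of the distal tubule had 1 and 0 counts at stage 25 and 342 and 175 at stage 35, at least 101-fold higher (edgeR adjusted p = 1.28e-07). Proximal tubule genes slc5a2, a glucose transporter, and pdzk1, a scaffold of apical transporters, rose by 4.78 ± 0.69 and 5.41 ± 0.38. Others fell, including the sugar transporter slc5a9, from 812 and 847 counts to 76 and 83, and the marker slc12a1, a cotransporter of the distal nephron, from 1038 and 839 to 411 and 362. Of 6 genes of the glomus, the filtration unit, 3 rose and 2 fell (1 without pool 1 of stage 25 or pool 2 of stage 35). The slit diaphragm gene nphs1 rose from 10 and 9 counts to 50 and 61.

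Neuronal genes rose as a group. Of 102 tested, 63 rose and 6 fell (3 without pool 1 of either stage), with 42 of the 63 at least 4-fold and a median log2 change of 1.72, or 1.62 with bounds. The summed level was 2360 and 1970 CPM at stage 25 and 5170 and 7080 CPM at stage 35. Between 54 and 63 members were called higher over the alternatives. Of 24 genes of synaptic vesicles and release, 21 rose and none fell. The vesicle fusion genes snap25 and syt1 rose by 2.04 ± 0.44 and 2.36 ± 0.26. Complexin 1, a clamp of vesicle fusion, is encoded by cplx1, which went from 55 and 113 counts to 1105 and 1018 (log2 change 3.91 ± 0.35, edgeR adjusted p = 6.82e-07). The presynaptic adhesion gene nrxn2 rose from 80 and 73 counts to 998 and 1013.

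Cytoskeletal and early neuronal genes gave 15 rises among 21 tested. The endoplasmic reticulum protein gene rtn1 rose from 77 and 60 counts to 1223 and 1108, the axon growth gene stmn2 from 776 and 644 to 4339 and 4613, and the neurofilament gene nefh from 4 and 2 to 62 and 115. Of 19 genes of transmitter synthesis and transport, 6 rose (31.6%) and 2 fell (1 without pool 1 of either stage). Over all genes tested, 24.2% rose and 21.6% fell. Of these 19 genes, 11 were not called, and their median log2 change was 0.46. The members that rose included gad2, which makes GABA, from 2 and 10 counts to 236 and 356. Another was the vesicular glutamate transporter slc17a7, from 242 and 182 to 1240 and 1689. Among receptors and channels, 11 of 21 and 10 of 17 rose (6 channels without pool 2 of stage 25), with the glutamate receptor subunit grin2b at 26 and 9 counts and then 165 and 163. The receptor genes that fell included chrng and chrna1 of the neuromuscular junction, chrng from 120 and 103 CPM to 15.0 and 11.9 CPM (log2 change -3.05 ± 0.28). The vesicular monoamine transporter slc18a2 fell by 2.65 ± 0.28.

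Genes of neural progenitors fell in the same embryos. Of 22 progenitor and Notch pathway genes, 14 fell and 1 was called higher (2 without pool 1 of stage 25 and 0 without either pool 2). The progenitor factor sox3 was at 540 and 388 CPM at stage 15, 313 and 215 CPM at stage 25 and 61.4 and 72.6 CPM at stage 35 (log2 change from stage 25 of -1.98 ± 0.23, edgeR adjusted p = 5.81e-06). The Notch target hes1 fell by 1.45 ± 0.30. Of 18 proneural and cascade genes, 3 fell (16.7%) and 7 rose (38.9%), beside 21.6% and 24.2% over all genes tested. The share that fell was no larger than that over all genes, and the median log2 change was 0.23. Those that fell were neurog1, neurog2 and neurog3, with log2 changes of -1.42, -1.0 and -1.15. Among those that rose, neurod2 was at least 19.0-fold higher, with 41 and 53 counts after 0 and 0. Another, neurod6, went from 1 and 4 counts to 96 and 79. For glia, 6 of 19 genes rose (31.6%) and 5 fell (26.3%), beside 24.2% and 21.6% over all genes tested. The radial glial lipid carrier fabp7 rose from 229 and 335 counts to 11155 and 8669 (log2 change 5.38 ± 0.33, edgeR adjusted p = 2.72e-08), and the glutamate transporter slc1a2 from 320 and 217 to 1508 and 1891. The hindbrain and Schwann cell regulator egr2 fell from 879 and 426 counts to 43 and 33.

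Some genes of other sense organs and of hormone cells rose from few counts in the tailbud, while others, such as ocm4.5, were already well counted there. Of 24 hair cell and ear genes, 9 rose and 1 fell (0 without pool 1 of stage 25). With all pools, the shares were 37.5% higher and 4.17% lower, beside 24.2% and 21.6% over all genes tested, and 14 of the 24 were not called. The transduction channel partner lhfpl5 had 0 and 1 counts at stage 25 and 57 and 51 at stage 35, at least 21.6-fold higher. The calcium buffer ocm4.5 rose from 285 and 727 counts to 10518 and 5673. Of 28 hormone genes, 14 rose and 4 fell, and 9 rose without pool 1 of stage 25. The pituitary precursor gene pomc was not detected in either tailbud pool and had 124 and 174 counts at stage 35, at least 60.4-fold higher (edgeR adjusted p = 3.92e-06). Neuropeptide Y is encoded by npy, which rose from 7 and 3 counts to 153 and 172, and the vasopressin family gene avp fell from 204 and 255 to 20 and 25.

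Of 19 melanophore genes, 9 rose (47.4%) and 5 fell (26.3%), beside 24.2% and 21.6% over all genes tested. The melanin synthesis gene tyr rose from 25 and 75 counts to 1300 and 1185 (log2 change 4.88 ± 0.44, edgeR adjusted p = 6.82e-07), dct by 2.25 ± 0.25, and the melanosome genes rab38 and slc24a5 by 5.39 ± 0.49 and 3.54 ± 0.48. The pigment and neural crest regulator sox10 fell from 1248 and 664 counts to 238 and 201. Of 14 neural crest genes, 10 fell and none rose, with a median log2 change of -1.24, and 10 fell under every alternative. The repressor snai1, which marks premigratory crest, was at 683 and 519 CPM at stage 15, 346 and 303 CPM at stage 25 and 90.3 and 97.2 CPM at stage 35 (log2 change from stage 25 of -1.79 ± 0.16, edgeR adjusted p = 5.9e-07). Pharyngeal arch genes did not move together, with 5 of 16 higher (3 without pool 2 of stage 25) and 6 lower. The arch endoderm gene pax9 rose by 1.56 ± 0.31, and tbx1 and dlx3 had log2 changes of -1.53 ± 0.20 and -1.91 ± 0.19.

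Over the whole list of 35 cartilage and skeleton genes, 25.7% were called higher and 22.9% lower, near the shares over all genes. Of 19 cartilage matrix genes, 7 fell and 4 rose. The falls numbered 3 without pool 2 of stage 35 and 4 without pool 1 of either stage. The main cartilage collagen gene col2a1 was at 1000 and 938 CPM and then 384 and 444 CPM (log2 change -1.23 ± 0.25, edgeR adjusted p = 0.00114); it is also made by the notochord. The cartilage proteoglycan gene acan, with 22 and 21 counts and then 33 and 30, was not called (edgeR adjusted p = 0.284), and matn1, with 4 and 0 counts and then 1 and 0, was not tested. Among regulators, 5 of 16 rose (3 without pool 1 of stage 25) and 1 fell (2 without pool 1 of stage 35). Barx1, nkx3-2 and ihh, which act in jaw and growth cartilage, rose: barx1 from 30 and 37 counts to 321 and 329, nkx3-2 from 30 and 44 to 232 and 227, and ihh from 18 and 12 to 135 and 139. Type I collagen rose. The chains of type I collagen, the main collagen of skin and bone, went from 968 and 1322 counts to 24613 and 20394 for col1a1 (log2 change 4.55 ± 0.42, edgeR adjusted p = 9.35e-07) and from 287 and 478 to 8551 and 6507 for col1a2. Of 36 collagen genes, 14 rose (38.9%) and 6 fell (16.7%), beside 24.2% and 21.6% over all genes tested. The share that fell was no larger than that over all genes. Another collagen gene, col17a1, a component of hemidesmosomes, rose by 4.09 ± 0.44.

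Some genes of the embryonic skin fell from high tailbud levels. Of 27 keratin genes tested, 9 fell (33.3%) and 5 rose (18.5%), beside 21.6% and 24.2% over all genes tested. The epidermis marker tp63 did not fall, with 811 and 762 counts at stage 25 and 1017 and 765 at stage 35. The keratin krt70 had 73274 and 47354 counts at stage 25 and 825 and 696 at stage 35, a log2 change of -6.04 ± 0.33 (edgeR adjusted p = 8.58e-09). Keratins krt62 and krt15.2 rose, krt62 from 0 and 0 counts to 184 and 151, at least 66.7-fold higher, and krt15.2 from 6 and 5 to 656 and 642. Keratin genes occur in near-identical copies, and the split of reads between copies is uncertain. The summed keratin level was 28100 and 26500 CPM at stage 25 and 8870 and 5720 CPM at stage 35. Of 26 genes of the cement gland, hatching gland, ionocytes and other secretory cells, 15 fell and 3 were called higher. The cement gland genes agr2 and ag1 fell from 8187 and 5556 counts to 615 and 338 and from 4887 and 3176 to 344 and 176.

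Hatching enzymes digest the envelope around the embryo. The gene astl2c had 903 and 413 CPM at stage 15, 65.3 and 9.35 CPM at stage 25 and 0 and 0.307 CPM at stage 35, a log2 change from stage 25 of -7.95 ± 1.13 (edgeR adjusted p = 4.4e-05). Its relatives astl2d.2, astl2d.3 and astl2d.4 were also among the 15 largest falls, with 384 and 463 counts of astl2d.4 and then 2 and 2, at least 118-fold lower. Such close copies may share reads. Multiciliated cells, which drive fluid over the tailbud skin, showed a smaller and wider fall. Of 54 axoneme genes, 40 fell and none rose, with a median log2 change of -0.93 and 27 to 40 members called lower over the alternatives. The dynein arm gene dnai1 fell from 909 and 855 counts to 382 and 361 (log2 change -0.98 ± 0.18, edgeR adjusted p = 0.000341), and armc4, needed to dock dynein arms, had a log2 change of -1.82 ± 0.27. The 10 regulators of multiciliated cells tested gave 3 falls and 2 rises, with 5 not called and a median log2 change of -0.46. Over all genes tested, 21.6% fell and 24.2% rose, so the calls among the regulators were near the shares over all genes. Counts of the marker foxj1 went from 513 and 393 to 238 and 130. The gene mcidas, which starts the multiciliated programme, was among the regulators that rose. Its log2 change was 2.16 ± 0.47, from 13 and 18 counts to 58 and 58. Another gene listed with the regulators, cdc20b, rose by 1.57 ± 0.36. At stage 15, mcidas was higher, at 67.1 and 22.6 CPM.

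Genes of axis extension and segmentation held some of the largest falls. Of 34 tested, 22 fell, 14 of them by at least 4-fold, and 1 was called higher (0 without either pool of stage 25 or pool 2 of stage 35), with a median log2 change of -2.16, or -1.78 with bounds. The posterior Wnt ligand wnt8a had 92.9 and 84.4 CPM at stage 15, 423 and 479 counts (24.7 and 29.3 CPM) at stage 25 and no count in either tadpole pool, at least 125-fold lower (edgeR adjusted p = 3.85e-08). The posterior homeobox gene cdx4 fell from 659 and 705 counts to 19 and 9, and the somite boundary gene ripply2.1 from 237 and 226 to 11 and 2. Outside the list, the left-right and mesoderm ligand nodal1 went from 381 and 390 counts to 1 and 1, at least 107-fold lower, and the ventral homeobox gene ventx1.2 from 401 and 300 to 1 and 3, at least 96.8-fold lower. Other large falls were those of the protease genes tll1 and tll2l, the protocadherin pcdh8l, the hyaluronidase family gene spam1, phyhdla.3, angpt4 and angpt4.2. Pools of stage 25 differed for angpt4, with 3465 and 662 counts, and both were far above the 12 and 3 counts of stage 35.

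Hox genes give cells along the body axis their position, and groups with low numbers act toward the head. Of 35 tested, 19 fell and 3 were called higher (1 without pool 2 of stage 25), with 17 to 19 falls over the alternatives. In paralogue group 1, the gene hoxb1 went from 358 and 370 counts to 19 and 18 (log2 change -4.03 ± 0.34, edgeR adjusted p = 3.74e-07) and hoxd1 from 677 and 546 to 50 and 58. Of 11 genes in groups 5 to 8, 9 fell and 1 was called higher, with a median log2 change of -1.27. Of 11 genes in groups 9 to 13, 1 fell and 1 was called higher, with a median of 0.48. In this set, hoxc11, hoxa13, hoxc13 and hoxd13 had means under 1 CPM at both stages, where changes are harder to call. The part of low counts in the difference between groups was not tested. Over all 35 hox genes, 8.57% were called higher and 54.3% lower, beside 24.2% and 21.6% over all genes tested. Groups 2 to 4 gave 6 falls and 1 rise in 10 genes; the rise was hoxa4, from 361 and 306 counts to 584 and 531. The call of hoxd10, with 1 and 0 counts and then 20 and 12, and that of hoxd8, with 4 and 2 and then 32 and 20, were lost without pool 2 of stage 25.

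**Figure D5:**
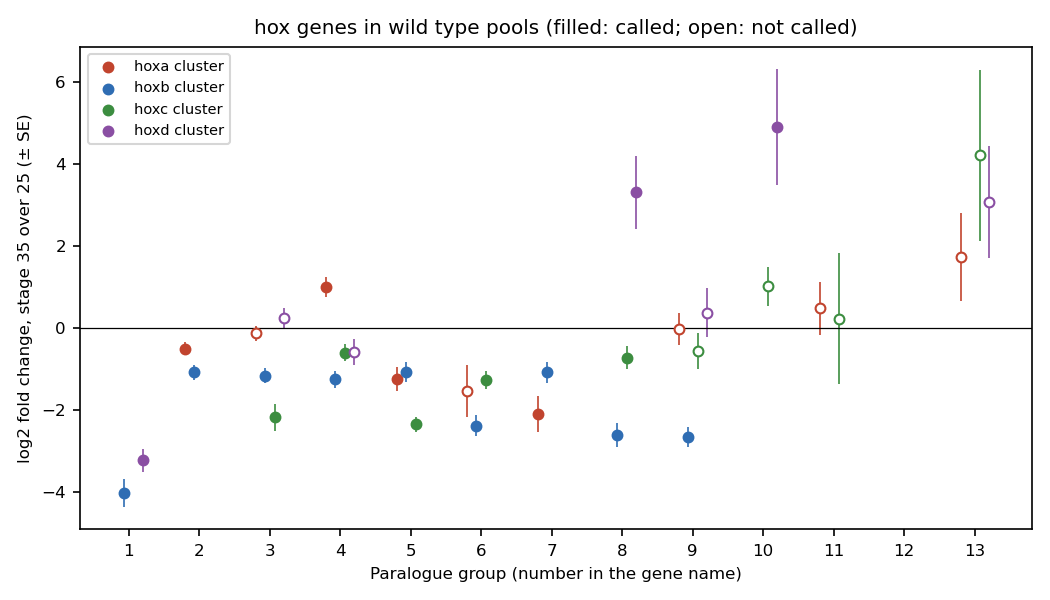
Fitted log2 fold change of hox genes, stage 35 over stage 25 in wild type pools, with 1 gene not shown, by paralogue group, with bars of 1 SE and colours for the 4 clusters; filled points were called and open points were not. In group 1, hoxb1 and hoxd1 lie at -4.03 and -3.23, most genes of groups 5 to 8 lie below 0, and groups 10 to 13 lie above 0 with long bars from low counts; for hoxd10, hoxc13 and hoxd13, which have almost no counts at stage 25, the size depends on the fit.

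Genes for ribosomal proteins and genes for building ribosomes changed in opposite directions. Of 78 cytoplasmic ribosomal protein genes, 74 rose and none fell, none by 4-fold, with a median log2 change of 0.86. The summed level was 83700 and 66800 CPM at stage 25 and 125000 and 143000 CPM at stage 35. Without pool 2 of stage 25, 55 members were called, the lowest number over the alternatives. The stalk protein gene rplp2 rose from 481 and 416 CPM to 1020 and 1150 CPM (log2 change 1.28 ± 0.19, edgeR adjusted p = 6.71e-05). Of 60 ribosome assembly genes, 56 fell and none rose, with a median of -0.95 and summed levels of 18600 and 18900 CPM and then 9550 and 10200 CPM. The RNA polymerase I subunit gene polr1b fell from 1773 and 1750 counts to 547 and 489 (log2 change -1.51 ± 0.15, edgeR adjusted p = 1.93e-06), and rrp9 and tsr1, for processing of ribosomal RNA and maturation of the small subunit, had log2 changes of -1.39 ± 0.18 and -1.35 ± 0.15. No member of either list was called in the other direction under any of the 3 scalings of library size. These levels are relative to scaled library sizes, and the RNA content of an embryo was not measured.

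Respiratory chain genes rose, 61 of 74, with 3 lower (1 without pool 2 of stage 35) and a median log2 change of 0.94. The ATP synthase ring gene atp5mc1 went from 756 and 756 counts to 2901 and 2666 (log2 change 2.14 ± 0.15, edgeR adjusted p = 7.3e-08), and ndufs6 of complex I from 193 and 173 to 803 and 470. Those that fell were cox4i2, with a log2 change of -1.24 ± 0.26, the muscle isoform cox6a2 and the electron carrier cycs, with -0.63 ± 0.19. The calls of cox6a2 and cycs were lost in alternatives; the gene cox6a2 was named after its values were seen. Of 76 mitochondrial ribosomal protein genes, 33 rose and 1 fell; without pool 2 of stage 25, 21 rose and 0 fell, and 0 fell without pool 1 of stage 35.

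Cell division genes fell by smaller amounts. Of 49 genes of mitosis, 38 fell and 1 was called higher, and of 40 replication genes, 18 fell and 1 was called higher. Neither was called higher without either pool 2, nor was the replication gene without pool 1 of stage 35. The medians were -0.82 and -0.27. The cyclin gene ccnb2 went from 2128 and 2367 counts to 648 and 531 (log2 change -1.68 ± 0.19, edgeR adjusted p = 5.33e-06), and mybl2, a regulator of cell cycle genes, fell by 1.5 ± 0.17. The maternal variant mcm6 of the replicative helicase went from 22 and 68 counts to 2 and 1, at least 12.6-fold lower, or 5.96-fold without pool 2 of stage 25. Oocyte and germ plasm genes also fell, 14 of 28, with 2 called higher (1 without pool 2 of stage 25). The germ cell gene dazl went from 415 and 616 counts to 35 and 8, and zp4, an egg coat gene, from 337 and 258 to 28 and 17.

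Spliceosome genes fell together by modest amounts. Of 57 tested, 42 fell and none rose, with a median log2 change of -0.60. Without pool 1 of stage 25 or pool 2 of stage 35, 27 were called lower, and 32 with DESeq2 size factors. All 10 genes of the SF3a and SF3b complexes were called lower, with 4 without pool 1 of stage 25 or pool 2 of stage 35, 5 without pool 1 of stage 35 and 6 without pool 2 of stage 25. The largest fall of these was that of sf3a2, from 5311 and 3838 counts to 1548 and 1753 (log2 change -1.19 ± 0.21, edgeR adjusted p = 0.000312). For sf3b4 itself, stage 15 pools held 291 and 210 CPM, tailbud pools 144 and 146 CPM and tadpole pools 83.1 and 108 CPM. Both tadpole pools were below both tailbud pools, and the log2 change of sf3b4 was -0.60 ± 0.20 (edgeR adjusted p = 0.024), a call lost with DESeq2 size factors and when any of 3 pools was left out.

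The stage change in het embryos used no library of the wild type comparison. In het pools, 8443 genes (46.2%) were called between the stages, 4559 higher (24.9%) and 3884 lower (21.2%). Of the genes called higher in wild type, 3802 were called higher in het too, 85.9% of the wild type and 83.4% of the het list, and 3206 were called lower in both, 81.3% and 82.5%. No gene was called in opposite directions. Of the 2891 wild type calls of at least 4-fold (15.8%), 2870 had the same sign in het and 2490 were called the same way. No gene was called for a difference between the wild type and het stage changes (0.0%) by edgeR, with 325 at an unadjusted p under 0.05 and 1 call by DESeq2. In null embryos, 7865 genes (43.0%) were called, 4039 higher (22.1%) and 3826 lower (20.9%). Of the wild type lists, 3167 genes were called higher in null too, 71.5% of the wild type and 78.4% of the null list, and 2887 were called lower in both, 73.2% and 75.5%. Of the genes called higher in wild type 4, and of those called lower 17, were called the other way in null.

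The wild type and null stage changes differed at an adjusted p under 0.05 in 27 genes (0.148%), of which 6 (0.0328%) had the more positive change in wild type and 21 (0.115%) in null. That number was 159 with DESeq2 and 239 with no filter on low counts, and leaving out 1 pool gave from 4, without pool 2 of wild type stage 25, to 43, without pool 1 of null stage 35. The photoreceptor matrix gene impg2 rose in both, from 14 and 16 counts to 891 and 913 in wild type. Its log2 change was 6.16 in wild type and 3.21 in null, a difference of 2.95 ± 0.53 (edgeR adjusted p = 0.0348). Another of the 6 genes, rp1l1, had a difference of 5.42 ± 0.79 (edgeR adjusted p = 0.0101), but its null pools were the higher at both stages. Levels of rp1l1 were 0.0584 and 0.0611 CPM in wild type and 7.26 and 4.05 CPM in null at stage 25. At stage 35 they were 10.1 and 10.9 CPM in wild type and 16.6 and 24.3 CPM in null. The rod opsin rho rose by 9.61 in wild type and 7.18 in null on the log2 scale, a difference that was not called (edgeR adjusted p = 0.62). Levels of rho at stage 35 were 329 and 528 CPM in wild type, 586 and 349 CPM in het and 42.9 and 108 CPM in null pools. Of the 45 photoreceptor genes, 41 were called higher in het and 37 in null.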

How the data were processed

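The authors deposited raw counts of reads per gene, 1 table per library, per the file headers and values. Per the submitters' processing notes, bcl2fastq 2.20 and STAR were used; the genome build, counting tool and strand setting are not given in the sources used here, so near-identical or overlapping genes may share reads. Per the labels' protocols, RNA came from pools of 5 whole embryos by column kit and went into stranded poly(A) libraries.

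Groups were taken from the labels. Of 26531 genes, 3842 had no count in any library, and 18290 passed edgeR's filterByExpr (minimum count 10, minimum total 15) over 17 libraries. Counts were fitted with the quasi-likelihood model of edgeR 4.0.16 (R 4.3.3, limma 3.58.1) with TMM factors, in the 16 libraries of the 8 groups with 2 pools; the fit had 8 residual degrees of freedom and a biological coefficient of variation of 20.8%. Tests were two-sided, with Benjamini-Hochberg adjustment over all genes tested. SE is the absolute log2 fold change divided by the square root of F. CPM values use TMM-scaled library sizes. Total counts of 11714437 to 21639041 per library set the counting error, which is the only error that floors cover, since reads without molecular identifiers are not independent molecules.

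The members and the 32 gene lists were chosen with earlier results of these data known. Of 1582 listed names, 1465 matched a symbol, 21 an older name and 96 none; gene names were checked against RefSeq (UCB_Xtro_10.0). Genes were named by a rule: the 15 largest rises and falls among called genes with non-overlapping pools and at least 10 CPM at the higher stage, up to 3 called members each way with at least 1 CPM per list role, sf3b4, up to 5 genes with the smallest p in each difference from het or null, and tissue markers. Replicate numbers were not taken to pair the pools: the deviations of same-numbered pools correlated with r = -0.122, and from -0.347 to 0.149 over 28 pairs of groups. Alternatives were DESeq2 1.42.0, other scalings and filters, a fit of the compared libraries only, a replicate block and leaving out each pool; bounds with a pool left out were added after seeing the data. Promoter sequences were not analysed here, and some named genes are not reported here.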

Additional observations from a re-analysis of the deposited data

Results flagged for a closer look

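The stage changes of wild type and null pools differed in 27 genes at an edgeR adjusted p under 0.05, and the 6 described here were tested for the difference itself. The uncharacterised gene LOC101730955 had 98 and 77 counts at stage 25 and 9 and 12 at stage 35 in wild type, and 41 and 39 counts and then 457 and 616 in null pools. Its log2 stage change was lower in wild type by a difference of -6.55 ± 0.54 (edgeR adjusted p = 3.73e-05). For LOC101732654, null pools went from 4 and 3 counts to 608 and 864 and wild type pools from 8 and 6 to 2 and 3, a difference of -8.89 ± 0.92 (edgeR adjusted p = 0.000664).

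Avidin binds biotin, and its gene avd had 52 and 37 counts at stage 25 and 3 and 3 at stage 35 in wild type, against 39 and 51 and then 578 and 1048 in null pools. The difference was -7.81 ± 0.86 (edgeR adjusted p = 0.000664). The decoy receptor gene il1r2 of interleukin 1 went from 72 and 61 counts to 15 and 12 in wild type and from 21 and 12 to 146 and 173 in null pools, a difference of -5.31 ± 0.65 (edgeR adjusted p = 0.00219). The extracellular matrix gene ecm1 had 137 and 195 counts and then 134 and 83 in wild type, and rose in null pools from 192 and 263 counts to 1139 and 871, a difference of -2.52 ± 0.36 (edgeR adjusted p = 0.0098). The gene impg2, of the matrix around photoreceptors, rose in both genotypes with a difference of 2.95 ± 0.53 (edgeR adjusted p = 0.0348).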

How the results depend on the processing

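Over the 12 alternatives, the wild type calls numbered 6326 to 8435, with 3382 to 4798 higher and 2792 to 4008 lower, and calls of at least 4-fold numbered 2525 to 2945 (1779 to 2161 higher, 654 to 898 lower). Of all calls, 52.9% were higher, 58.0% with DESeq2 size factors and 57.3% with upper quartile factors. Of 300 named genes, 292 were called and 238 were lost under none of the alternatives. Most rules for naming required a call and took the largest changes, so these numbers of named genes do not describe all called genes. The log2 changes of cryba1 and crybb1 turned to -1.23 and -1.70 without wild type replicate 1 of stage 35 and were 2.35 and 2.69 without replicate 2. The null stage change gave 5219 calls without null replicate 2 of stage 35 and up to 6150 without another null pool. The difference between wild type and het gave 0 genes, 1 with the DESeq2 Wald test and 2 with no filter on low counts. The difference between wild type and null gave 159 with the Wald test, 239 with no filter and 4 to 43 when a pool was left out; the cause was not tested. With the replicate block, 8194 genes were called in wild type, 8242 in het, 7658 in null and 22 for the difference between wild type and null. A crossed pairing, chosen after seeing the data, gave 8354. With 2 pools per group, differences smaller than their spread were not detectable.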
